A study of Mus musculus with 6 samples.

Results

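The genes followed were 40 genes of the lysosome among the 51912 genes in the deposited table, chosen by name: membrane proteins, soluble hydrolases with a cofactor, the proton pump (V-ATPase), an autophagy receptor, the glycoprotein gene Gpnmb and the transcription factor genes Tfeb and Tfe3. The cathepsins, the main lysosomal proteases, were not among them. All 40 were found once in the table and all 40 passed the filter on low values, so no member was lost. The data were RNA-seq libraries of B16F10, a pigmented mouse melanoma cell line. They comprised 3 libraries of wild-type cells (WT, replicates 1, 2 and 3) and 3 of cells of genotype ANXA10-/- (A10KO, which carry the label numbers 1, 13 and 14), with no treatment or time point in the labels. Annexins are proteins that bind membranes when calcium is present. How the knockout was made, and whether the numbers stand for clones or for cultures of 1 line, is not given in the sources used here, so a p-value here reflects how much these libraries vary, which could be technical variation alone.

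The lysosome is the acidic compartment in which cells break down proteins, lipids, glycans and whole organelles delivered by endocytosis and autophagy. The V-ATPase is a rotary pump: its cytosolic V1 sector hydrolyses ATP and its membrane V0 sector moves protons into the lumen, where the hydrolases need low pH. TFEB, TFE3 and the melanocyte factor MITF belong to the MiT/TFE family, which binds E-boxes with the core CACGTG in the promoters of many lysosomal genes. Pigment cells also carry melanosomes, organelles related to lysosomes that share part of this machinery.

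Values are TPM, a relative abundance scaled by transcript length and library total, which keeps no record of read depth. Each library had 11889 to 12236 genes at 1 TPM or more. The targeted gene, Anxa10, read 0 TPM in WT as well as in A10KO, so it gave no check of the labels. Mitochondrially encoded transcripts took 6.32% to 6.56% of TPM in the WT libraries and 7.93%, 14.7% and 7.37% in A10KO replicates 1, 13 and 14. Of the melanocyte markers, 9 of 10 were expressed, with Tyrp1 at 2871 to 3068 TPM in WT, and Kit was listed at 0 in every WT library. Of 16 macrophage and leukocyte markers, a cell type rich in lysosomes, 13 were under 1 TPM in every library, Tyrobp, Adgre1 and Mrc1 were listed at 0 throughout, and the list summed to 5.02 to 7.22 TPM in WT and 1.73 to 3.39 in A10KO. Its most abundant gene was Cd68, which encodes a lysosomal glycoprotein, at 2.42, 4.70 and 4.80 TPM in WT and 1.29, 0.89 and 0.86 in A10KO. Their part in the values below was not tested.

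Lysosome genes differed little on average between A10KO and WT. No member passed the threshold of an adjusted p of 0.05, with 0 of 40 called by limma (Benjamini-Hochberg over all 12068 genes tested), beside 0.0414% of all tested genes (0.0166% higher and 0.0249% lower). At an unadjusted p under 0.05 there were 4 members, beside 8.83% of all tested genes. All 4 were lower in A10KO, beside 6.27% of all tested genes, and 0 were higher, beside 2.56%. The 4 were the hydrolase genes Gla, Naglu, Man2b1 and Sgsh. The 2 groups did not overlap for 9 members that were lower (22.5%, beside 11.5% of all tested genes) and 2 that were higher (5.0%, beside 5.61%). The log2 change was below 0 for 25 members (62.5%), beside 56.5% of all tested genes. The median log2 change of the 40 was -0.04, the same as the -0.04 of all tested genes. Log2 changes are A10KO minus WT on the log2(TPM + 1) scale, which understates changes of low genes. For 37 of 40 members the 95% interval of the change from limma lay within 2-fold in either direction. The exceptions were Gla, Naglu and Ids. In such bulk RNA, fewer cells expressing a gene and less RNA per cell cannot be told apart.

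**Figure D1:**
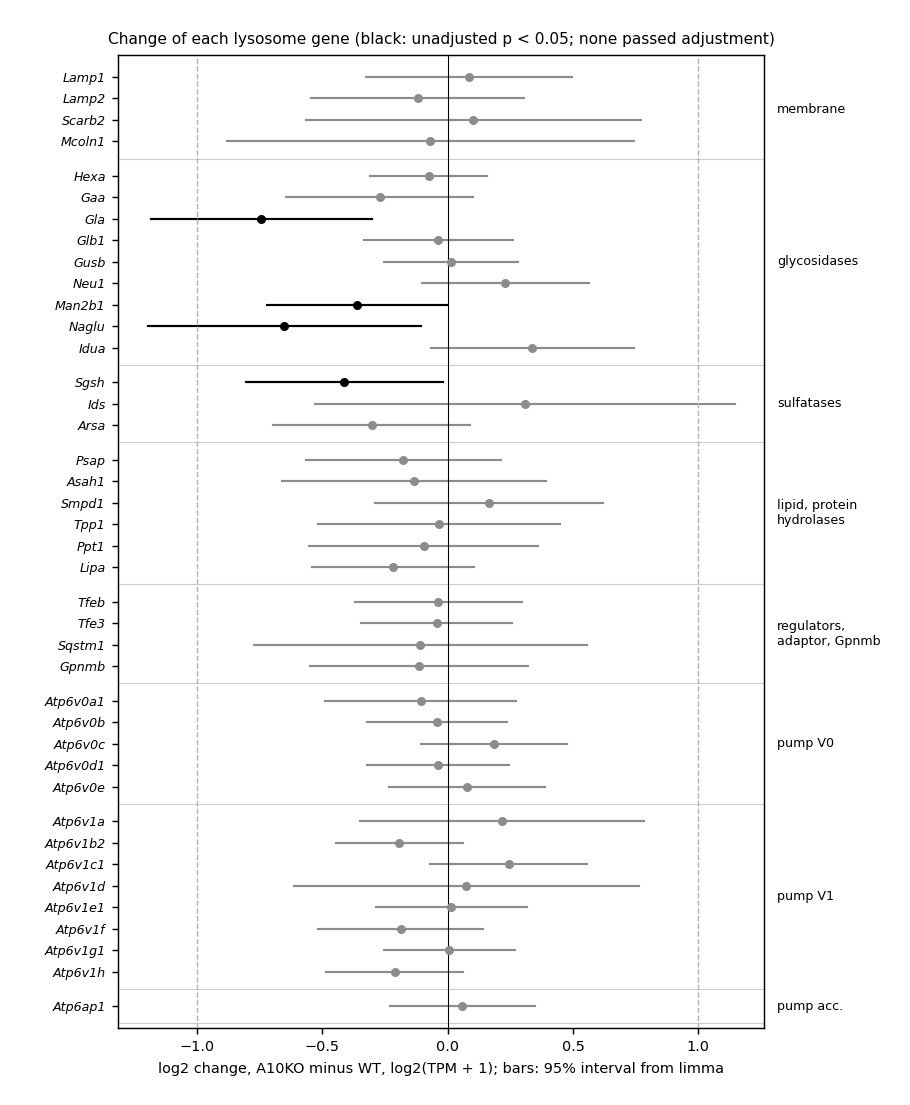
Log2 change (A10KO minus WT, log2(TPM + 1), x axis) of each of the 40 genes, grouped by role, with points for the limma estimate and bars for its 95% interval. The 4 genes drawn in black, Gla, Man2b1, Naglu and Sgsh, had an unadjusted p under 0.05, all lie left of 0, and the dashed lines mark a 2-fold change.

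The lower counts moved with the scaling of the libraries. With median-of-ratios scaling 6 members were lower without overlap, beside 8.91% of all tested genes. With mitochondrial transcripts removed 5 were (Gla, Man2b1, Naglu, Sgsh and Atp6v1b2), beside 8.41%. Over all genes at an unadjusted p under 0.05, the share that was lower was 71.0% on TPM as deposited, 58.4% with median-of-ratios scaling, 57.2% without mitochondrial transcripts and 55.0% with quantile normalization. Gla was past an unadjusted p of 0.05 in 15 of 15 settings, Naglu in 12, Sgsh in 9 and Man2b1 in 7. Only median-of-ratios scaling, removal of mitochondrial transcripts and quantile normalization could undo a lack of overlap. The other alternatives keep the order of the libraries or drop a library. Gla, Naglu, Sgsh, Man2b1 and Atp6v1b2 stayed lower without overlap under all of these scalings. Gaa did so only with quantile normalization, Atp6v1h only with median-of-ratios scaling, and Hexa and Lipa under none. In the other direction, Idua stayed higher without overlap under all of them. It was past an unadjusted p of 0.05 in 4 of 15 settings. Atp6v0c stayed higher without overlap except with median-of-ratios scaling.

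The factor genes were level between the groups. Tfeb stood at 24.37, 20.94 and 23.80 TPM in WT and 24.49, 22.46 and 20.37 in A10KO. Tfe3 stood at 31.33, 29.40 and 26.79 TPM in WT and 27.76, 29.80 and 27.16 in A10KO. The groups overlapped for both. Their log2 changes were -0.04 (95% interval -0.37 to 0.30) for Tfeb and -0.04 (-0.35 to 0.26) for Tfe3, and limma gave an adjusted p = 0.955 and an adjusted p = 0.941. Mitf, named with its family after values were seen, was the most abundant of the family per length, at 56.8 ± 1.25 TPM in WT and 67.4 ± 14.2 in A10KO (mean ± SD of 3 libraries each). Tfec, the remaining member of the family, was listed at 0 in every WT library and in A10KO replicates 1 and 14.

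Promoters of the lysosome genes often held the core E-box. RefSeq promoter windows of build GRCm38.p6, which run from 250 bases before to 50 bases after an annotated start site, were matched by symbol for 35 of the 40 genes. The motif CACGTG, which reads the same on both strands, was present in 12 of these 35 (34.3%). A gene was counted if any of its promoters held the motif. CACGTG was present in 7.15% of all 32851 promoters, in 8.09% of the 27025 genes with a promoter and in 12.1% of the 8936 tested genes with a promoter. The longer TCACGTGA, also the same on both strands and containing CACGTG, was present in 5 of 35 (14.3%). It was present in 0.974% of all promoters, 1.12% of all genes with a promoter and 2.32% of tested genes. The windows below, on the strand of the gene from 5′ to 3′ with the core in capitals, are shown because the first 5 belong to hydrolase genes that were lower without overlap in A10KO and the rest to genes with a full TCACGTGA whose groups overlapped, with the distance from the core's first base to the start site.
Gla, 227 bases before: agcgattgatCACGTGagcatctacg
Gla, 194 bases before: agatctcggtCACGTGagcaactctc
Naglu, 73 bases before: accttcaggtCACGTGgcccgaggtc
Sgsh, 29 bases before: gcctgccgtgCACGTGaccgtgggga
Gaa, 140 bases before: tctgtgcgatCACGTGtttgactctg
Mcoln1, 45 bases before: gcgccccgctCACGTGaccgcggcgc
Atp6v0d1, 3 bases before: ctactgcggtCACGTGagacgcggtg
Atp6v1a, 131 bases before: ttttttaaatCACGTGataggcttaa
Atp6v0e, 3 bases after: gcgcgccgatCACGTGagcctctgtt

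A CACGTG core was held by genes that were lower and by genes that were not. Of the 12 holders, 4 were lower without overlap (Gaa, Gla, Naglu and Sgsh) and 0 higher, and their median log2 change was -0.06. Of the 23 matched genes without it, 3 were lower and 2 higher without overlap, and the median was -0.04. Over the tested table entries with a promoter (a symbol can name more than 1 entry), 11.5% of 1084 with a core and 12.3% of 7859 without one were lower without overlap. Gla carried 2 full TCACGTGA octamers in its window (chrX:134600956-134601255, minus strand), which is shown whole because Gla had the lowest p of the 40 genes.
Gla promoter: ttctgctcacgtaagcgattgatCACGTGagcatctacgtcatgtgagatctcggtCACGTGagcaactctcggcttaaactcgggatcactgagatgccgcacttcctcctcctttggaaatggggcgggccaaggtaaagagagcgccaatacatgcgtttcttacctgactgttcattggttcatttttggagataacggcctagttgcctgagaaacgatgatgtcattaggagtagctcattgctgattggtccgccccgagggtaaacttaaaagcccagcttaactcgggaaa

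Glycosidases, which cut sugars from glycoproteins, glycolipids and glycosaminoglycans, held 3 of the 4 members with a low unadjusted p. Gla (ENSMUSG00000031266, chrX:134588149-134601125 on GRCm38) encodes alpha-galactosidase A, which removes terminal galactose from glycolipids and is deficient in Fabry disease. It stood at 6.79, 6.95 and 6.46 TPM in WT and at 3.77, 2.97 and 4.19 in A10KO. Every A10KO library lay below every WT library, and Gla was the least abundant of the 40 genes. Its mean was 45.9% lower in A10KO, with a log2 change of -0.74 (SE 0.19, 95% interval -1.19 to -0.30, limma unadjusted p = 0.00493, adjusted p = 0.323). The alternatives gave Gla an adjusted p between 0.203 and 0.938. Naglu (chr11:101070012-101077672) encodes the N-acetylglucosaminidase of heparan sulfate breakdown and stood at 82.64, 116.81 and 79.32 TPM in WT and at 42.06, 65.21 and 70.60 in A10KO. WT replicate 2 was the highest library and A10KO replicate 1 the lowest, and the groups did not overlap. Its log2 change was -0.65 (SE 0.23, limma unadjusted p = 0.0253, adjusted p = 0.502), and it was -0.48 without WT replicate 2 and -0.43 without A10KO replicate 1, where the unadjusted p was above 0.05. Man2b1, the lysosomal alpha-mannosidase gene (chr8:85083270-85098282), stood at 35.51, 37.61 and 35.53 TPM in WT and at 22.96, 30.38 and 31.34 in A10KO, with A10KO replicate 1 farthest from WT (log2 change -0.36, or -0.22 without that library, limma adjusted p = 0.564).

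None of the remaining glycosidases passed an unadjusted p of 0.05, and their log2 changes ran from -0.27 (Gaa) to 0.34 (Idua). Gaa, the acid alpha-glucosidase that degrades glycogen, stood at 86.40, 91.04 and 86.57 TPM in WT and at 58.01, 77.17 and 85.96 in A10KO, where replicate 14 was just under the WT range. Hexa, the alpha subunit of beta-hexosaminidase, was 129 ± 0.661 TPM in A10KO and 136 ± 4.08 in WT (mean ± SD of 3 libraries each), a non-overlapping difference of 5.21%. The Hexa groups overlapped with median-of-ratios scaling, with mitochondrial transcripts removed and with quantile normalization. Glb1 (beta-galactosidase) and Gusb (beta-glucuronidase) had log2 changes of -0.04 and 0.01, with overlapping groups. Neu1, the lysosomal sialidase gene, stood at 30.49, 27.65 and 27.64 TPM in WT and at 33.75, 38.29 and 29.55 in A10KO. Idua, the iduronidase of heparan and dermatan sulfate breakdown, was the 1 glycosidase gene higher without overlap. It stood at 9.54, 10.60 and 9.31 TPM in WT and at 11.06, 12.20 and 14.99 in A10KO (log2 change 0.34, limma adjusted p = 0.628). Idua exons overlap those of Dgkq (5.03 TPM) and Slc26a1 on the opposite strand, and the strand setting of the counting is not given.

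Sulfatase genes did not move together. Sgsh, the sulfamidase of heparan sulfate breakdown (chr11:119343425-119355536), stood at 12.44, 13.06 and 12.29 TPM in WT and at 7.99, 10.79 and 9.06 in A10KO. All A10KO values were below the WT values (log2 change -0.41, 95% interval -0.81 to -0.02, limma unadjusted p = 0.0422, adjusted p = 0.552). Its exons overlap those of Card14 (mean 11.9 TPM) on the opposite strand. Ids, the iduronate sulfatase gene, stood at 5.68, 8.70 and 4.94 TPM in WT and at 5.47, 14.30 and 6.39 in A10KO, so that A10KO replicate 13 alone lay above the WT range. Arsa, arylsulfatase A of sulfatide breakdown, stood at 19.05, 23.27 and 20.65 TPM in WT and at 14.75, 15.92 and 20.04 in A10KO, with replicate 14 inside the WT range.

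**Figure D2:**
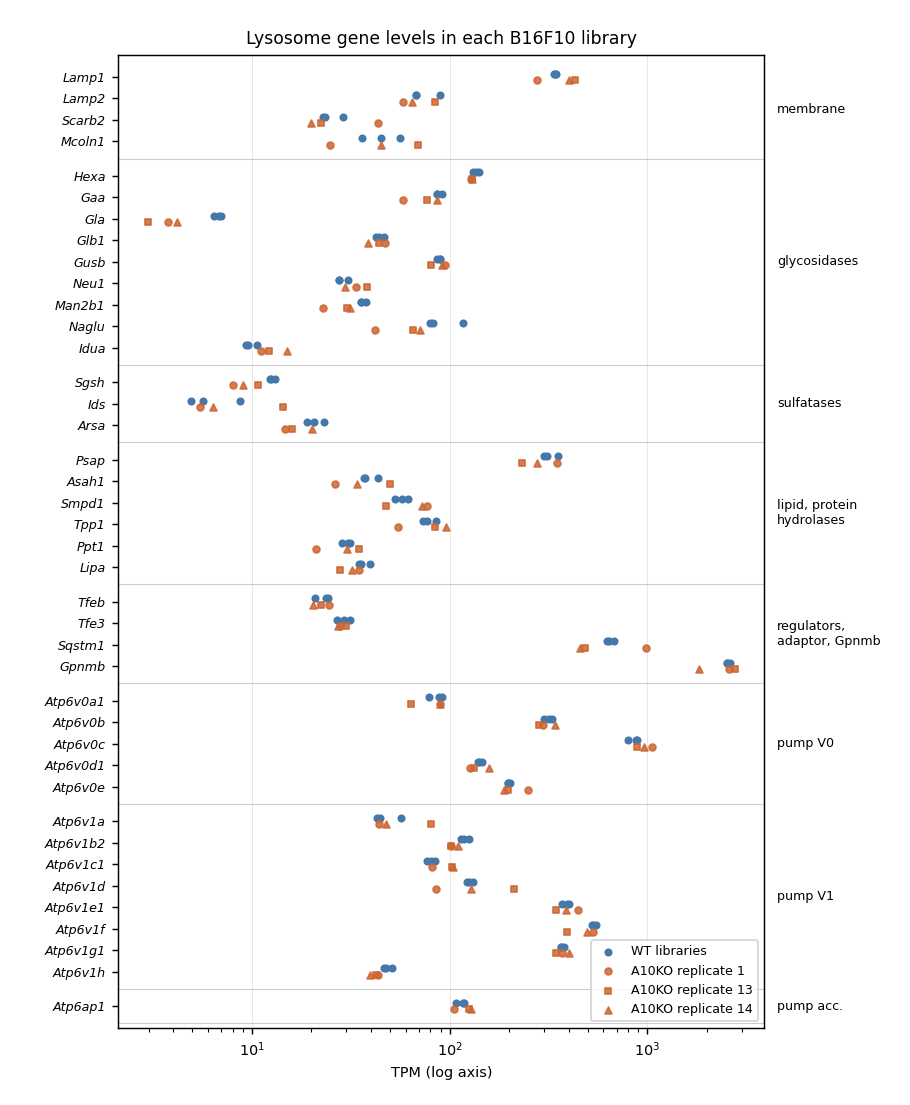
TPM on a log axis (x) for each of the 40 genes, grouped by role, with circles in blue for the 3 WT libraries and orange marks for A10KO replicates 1, 13 and 14. Levels span Gla, at 6.73 TPM in WT, to Gpnmb, at 2562, and the A10KO marks lie farther apart than the WT circles for most genes.

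On TPM as deposited, lipid and protein hydrolases and their cofactor showed 1 gene without overlap, Lipa. Its groups overlapped with median-of-ratios scaling, with mitochondrial transcripts removed and with quantile normalization. Lipa, the acid lipase that frees cholesterol from its esters, stood at 34.85, 39.75 and 35.82 TPM in WT and at 34.83, 27.77 and 32.18 in A10KO, where replicate 1 was barely below the lowest WT library. Psap, the precursor of the saposins that present sphingolipids to hydrolases, was the most abundant of these 6 genes, at 320 ± 27.6 TPM in WT and 287 ± 58.8 in A10KO (mean ± SD of 3 libraries each). Asah1, the acid ceramidase gene, stood at 36.90, 43.25 and 37.46 TPM in WT and at 26.45, 49.81 and 33.93 in A10KO. Smpd1, acid sphingomyelinase, stood at 57.41, 61.80 and 52.80 TPM in WT and at 76.99, 47.53 and 72.56 in A10KO. In both genes A10KO replicates 1 and 13 lay on opposite sides of the WT range, in reverse order. Tpp1, a tripeptidyl peptidase, and Ppt1, a palmitoyl thioesterase, had log2 changes of -0.03 and -0.10, again with A10KO replicate 1 the lowest library. Exons of Ppt1 overlap those of Cap1, at 139 TPM, on the opposite strand. Summed over the 18 hydrolase and cofactor genes, the level was 1095, 1213 and 1094 TPM in WT and 1034, 999 and 1074 in A10KO. Those sums did not overlap, with A10KO replicate 13 the lowest and also the library with the largest mitochondrial share. As a share of TPM without mitochondrial transcripts, the sums were 0.120%, 0.133% and 0.119% in WT and 0.115%, 0.121% and 0.119% in A10KO, so that the groups overlapped and replicate 13 was the highest A10KO library.

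Membrane protein genes differed between the A10KO libraries more than between the groups. Their log2 changes ran from -0.12 to 0.10, with a median of 0.01. The median SD within a group, on the log2(TPM + 1) scale, was 0.47 in A10KO and 0.21 in WT. Lamp1, a major glycoprotein of the lysosome membrane, stood at 337.98, 344.33 and 341.81 TPM in WT and at 275.97, 429.96 and 401.43 in A10KO. The WT values lay close together, while A10KO replicate 1 was below and replicates 13 and 14 above them (log2 change 0.09, 95% interval -0.33 to 0.50, limma adjusted p = 0.906). Lamp2, its partner with a role in autophagy, stood at 67.41, 89.50 and 67.46 TPM in WT and at 58.22, 84.11 and 64.54 in A10KO. Scarb2, which encodes LIMP-2, the carrier of glucocerebrosidase, stood at 23.37, 28.94 and 22.99 TPM in WT and at 43.50, 22.24 and 19.90 in A10KO. Mcoln1, the calcium channel TRPML1, stood at 35.99, 55.80 and 44.84 TPM in WT and at 24.86, 68.81 and 45.16 in A10KO. A10KO replicate 1 was therefore the lowest library for Lamp1, Lamp2 and Mcoln1 and the highest for Scarb2.

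Sqstm1 and Gpnmb, the most abundant members outside the pump, also differed mainly between A10KO libraries. Sqstm1 encodes p62, the receptor that brings ubiquitinated cargo to autophagosomes and is itself degraded in lysosomes. It stood at 681.54, 621.86 and 643.81 TPM in WT and at 989.81, 481.67 and 455.94 in A10KO, above the WT range in replicate 1 and below it in replicates 13 and 14. The log2 change was -0.11 (SE 0.28, limma adjusted p = 0.93), but -0.47 without A10KO replicate 1, 0.05 without replicate 13 and 0.09 without replicate 14. Its exons overlap those of Mrnip (12.6 TPM) on the opposite strand. Gpnmb, a glycoprotein of melanosomes and lysosomes, stood at 2516.91, 2627.87 and 2540.52 TPM in WT and at 2601.78, 2777.94 and 1835.24 in A10KO, where only replicate 14 left the WT level by more than 10%.

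**Figure D3:**
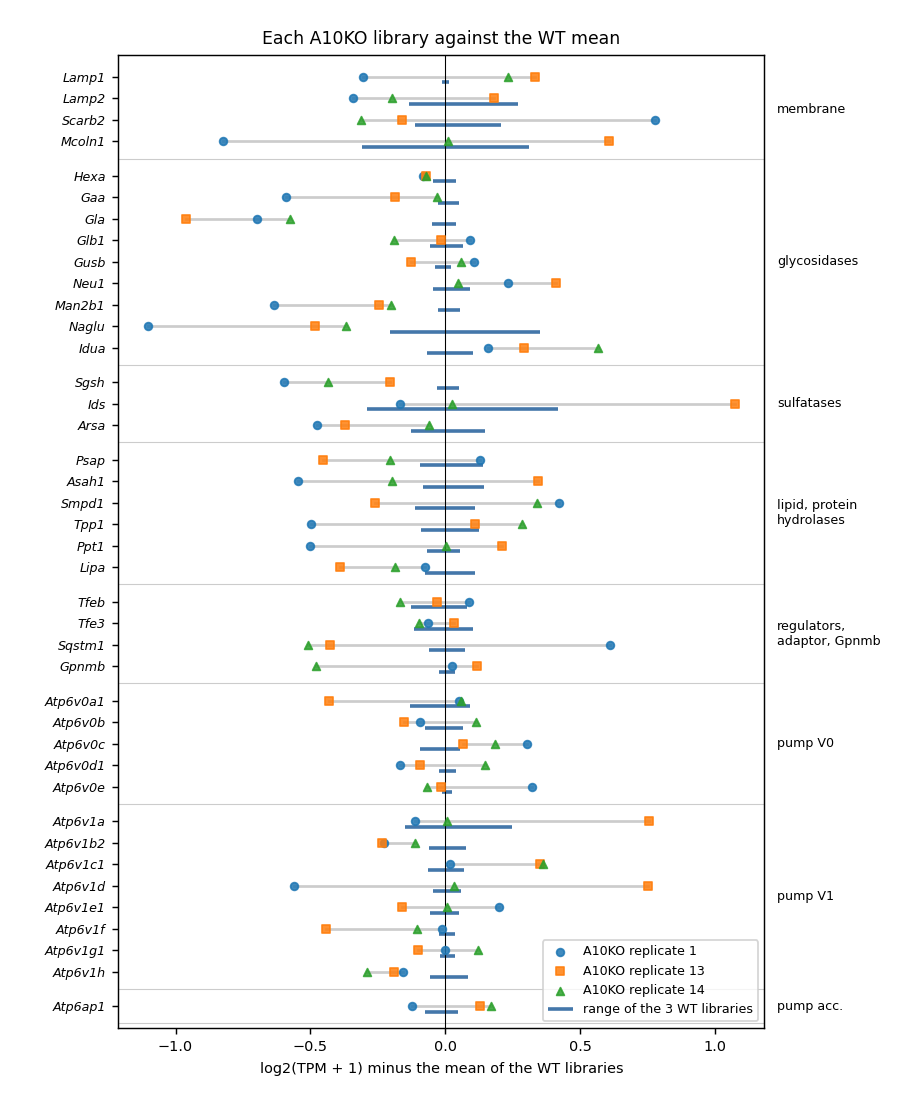
Position of each A10KO library (marks) relative to the mean of the WT libraries on the log2(TPM + 1) scale (x axis), with a grey line over the A10KO range and a blue bar for the range of the 3 WT libraries. Mcoln1 and Atp6v1d have replicates 1 and 13 on opposite sides of the WT bar, whereas all 3 marks of Gla, Man2b1, Naglu and Sgsh lie left of it.

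The spread within A10KO was larger than within WT for 37 of the 40 genes (92.5%), beside 78.2% of all tested genes and 80.3% of the 9242 tested genes between the lowest and highest mean level of the members. The exceptions were Hexa, Tfe3 and Atp6v1h. The median SD on the log2(TPM + 1) scale was 0.07 in WT and 0.21 in A10KO, against 0.13 and 0.27 for tested genes in that level range. The highest A10KO library was at least 1.5-fold above the lowest for 14 members (35.0%), a fold chosen after values were seen, against 46.0% of the genes in that level range. In WT this held for 2 members, Ids and Mcoln1 (5.0% against 12.1%). The median member thus varied less than the median gene of that level range in both groups. The range is wide and does not match levels. The median of the mean levels was 77.3 TPM for members, beside 16.1 over all tested genes. Whether level accounts for the smaller spread was not tested. A10KO replicate 1 was the lowest of the 6 libraries for 15 members (37.5%, beside 31.8% of all tested genes) and replicate 13 for 11 (27.5%, beside 24.2%). A10KO replicates 1 and 13 were each the highest of 6 for 9 members (22.5%, beside 13.8% and 31.5% of all tested genes). Limma shares 1 estimate of the spread between the groups, so its intervals do not show this difference.

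**Figure D4:**
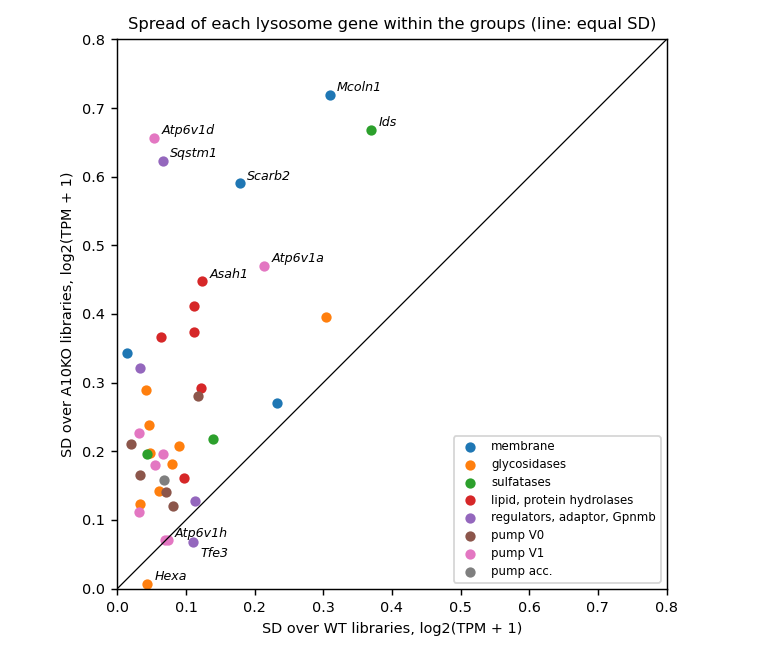
SD over the 3 A10KO libraries (y axis) against SD over the 3 WT libraries (x axis), both on the log2(TPM + 1) scale, 1 point per gene coloured by role, with a line at equal SD. Only Hexa, Tfe3 and Atp6v1h lie below the line, and Mcoln1, Ids, Atp6v1d and Sqstm1 have the largest SD in A10KO.

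The summed level of the proton pump overlapped between the groups on TPM as deposited, but not once mitochondrial transcripts were removed. Its 14 genes summed to 3447, 3398 and 3434 TPM in WT and to 3617, 3317 and 3595 in A10KO, with A10KO replicate 13 below and replicates 1 and 14 above the WT range. As a share of TPM without mitochondrial transcripts, the sums were 0.377%, 0.372% and 0.372% in WT and 0.403%, 0.401% and 0.398% in A10KO, where all 3 lay above WT. Gene by gene in that setting, only Atp6v0c, the most abundant pump gene, was higher without overlap, and Atp6v1b2 was lower without overlap. On TPM as deposited the median log2 change was 0.01, with 0 of 14 called by limma, 0 at an unadjusted p under 0.05, and an interval within 2-fold for all 14. In the V0 sector, Atp6v0c, which encodes the c subunit that makes up the rotor ring, stood at 882.47, 797.27 and 875.95 TPM in WT and at 1050.33, 889.29 and 967.74 in A10KO. These groups did not overlap (log2 change 0.18, 95% interval -0.11 to 0.48, limma adjusted p = 0.725), and with median-of-ratios scaling they did. The other V0 members, Atp6v0b of the ring, Atp6v0d1 of the stalk, Atp6v0e and the stator gene Atp6v0a1, had log2 changes of -0.11 to 0.08, and all overlapped. Atp6ap1, an accessory subunit, had a log2 change of 0.06.

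In the V1 sector, Atp6v1b2 and Atp6v1h were slightly lower without overlap. For Atp6v1h the groups overlapped with mitochondrial transcripts removed and with quantile normalization. Atp6v1b2, the B subunit of the ATP-hydrolysing head, stood at 114.16, 125.72 and 118.25 TPM in WT and at 101.61, 101.07 and 110.32 in A10KO (log2 change -0.19, limma adjusted p = 0.659). Atp6v1h, the H subunit that controls coupling of V1 to V0, stood at 47.54, 51.39 and 46.59 TPM in WT and at 43.41, 42.37 and 39.44 in A10KO (log2 change -0.21, limma adjusted p = 0.655). Atp6v1a, the catalytic A subunit, stood at 44.37, 56.54 and 42.80 TPM in WT and at 43.90, 80.92 and 47.73 in A10KO. Atp6v1d, the central shaft, stood at 125.22, 131.37 and 122.08 TPM in WT and at 85.16, 212.88 and 129.01 in A10KO. Replicate 13 was the highest library for both, and for Atp6v1d replicate 1 was the lowest. Atp6v1c1 stood at 80.28, 77.02 and 84.52 TPM in WT and at 81.50, 102.88 and 103.89 in A10KO. Atp6v1e1 and Atp6v1g1, of the peripheral stalks, had log2 changes of 0.02 and 0.01, and Atp6v1f, of the shaft, -0.19.

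Pump genes differed widely in level on the TPM scale, which is per length, with Atp6v0c at 14.1 to 20.5 times Atp6v1a in the WT libraries. In WT the order ran from Atp6v0c (852 ± 47.4 TPM) over Atp6v1f (536 ± 11.9), Atp6v1e1 (388 ± 14.6), Atp6v1g1 (371 ± 8.19), Atp6v0b (315 ± 15.5), Atp6v0e (199 ± 2.72), Atp6v0d1 (142 ± 3.29), Atp6v1d (126 ± 4.73), Atp6v1b2 (119 ± 5.86), Atp6ap1 (114 ± 5.33), Atp6v0a1 (86.3 ± 6.95) and Atp6v1c1 (80.6 ± 3.76) to Atp6v1h (48.5 ± 2.54) and Atp6v1a (47.9 ± 7.52). Neighbours whose WT ranges overlapped were Atp6v1e1 and Atp6v1g1, Atp6v1d with Atp6v1b2, Atp6v1b2 with Atp6ap1, Atp6v0a1 and Atp6v1c1, and Atp6v1h and Atp6v1a. The catalytic A subunit is present in several copies per pump and the F subunit in a single one. The ratio of Atp6v1f to Atp6v1a was 9.71 to 12.3 in WT and 12.1, 4.87 and 10.4 in A10KO replicates 1, 13 and 14.

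Several pump subunits have alternative genes, and 1 isoform made up nearly all TPM for most of them. Atp6v0d1, Atp6v1b2, Atp6v1c1, Atp6v1e1 and Atp6v1g1 each held at least 99.2% of the TPM of their subunit in every library. For V0 subunit a, which anchors the stator and directs the pump to membranes, the main gene was not the member Atp6v0a1 but Tcirg1, which encodes isoform a3, known from osteoclasts and late endosomes. Tcirg1 held 63.8% ± 3.88 of the TPM of the a-subunit genes in WT and 58.5% ± 2.10 in A10KO (mean ± SD of 3 libraries each), and Atp6v0a1 held 28.5% ± 3.47 and 31.2% ± 3.03. Tcirg1 stood at 189.95, 176.53 and 216.76 TPM in WT and at 149.66, 138.32 and 163.48 in A10KO, without overlap (log2 change -0.37, limma unadjusted p = 0.0223, adjusted p = 0.492). For subunit e, Atp6v0e held 51.8% to 61.6% and Atp6v0e2 the rest.

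**Figure D5:**
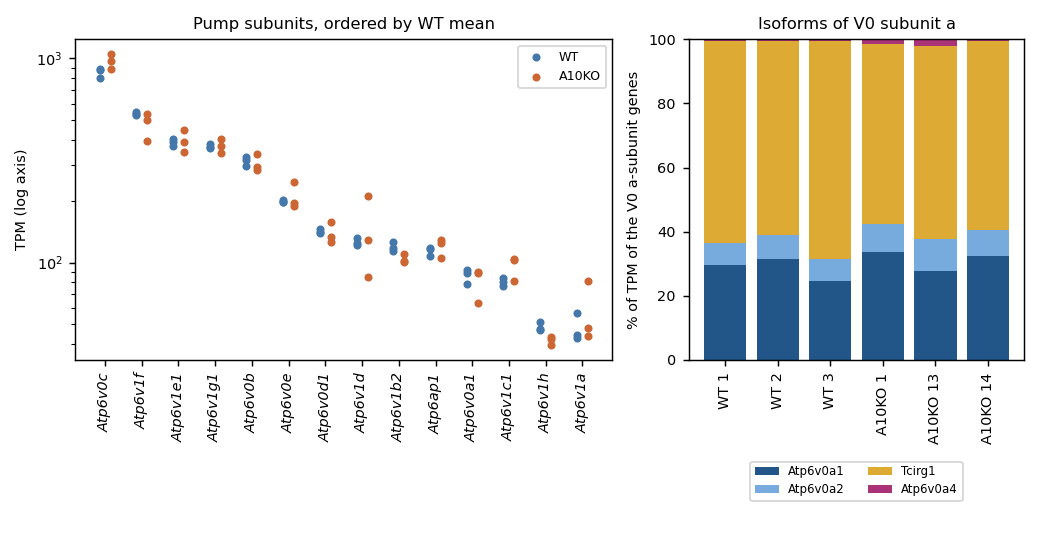
Left, TPM on a log axis of the 14 proton pump genes in each WT (blue) and A10KO (orange) library, ordered by WT mean from Atp6v0c (852 TPM) to Atp6v1a (47.9 TPM). Right, stacked bars of the share of the TPM of the V0 subunit a genes held by each isoform in each library, where Tcirg1 holds the largest share in all 6.

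Other genes of the pathway gave no call either. Their counts at an unadjusted p under 0.05 stand beside 6.27% of all tested genes lower and 2.56% higher, and their medians beside -0.04 over all tested genes. Of 24 further hydrolase and cofactor genes, 0 were called by limma, 3 were lower and 0 higher at an unadjusted p under 0.05, and the median log2 change was -0.10. Galns, a sulfatase of keratan sulfate breakdown, stood at 17.38, 19.80 and 16.67 TPM in WT and at 11.61, 14.27 and 13.04 in A10KO. Dnase2a, the acid DNase, was at 20.9 ± 1.81 TPM in WT and 15.6 ± 2.97 in A10KO (mean ± SD of 3 libraries each). Of 23 tested genes of lysosome membrane and transport, 0 were called, 2 were lower and 0 higher at that level, and the median was -0.18. These 2 were Tpcn2, a channel of lysosomes and melanosomes, at 13.8 ± 1.14 and 8.67 ± 1.28 TPM (limma adjusted p = 0.389), and Laptm4a, at 249 ± 23.2 and 193 ± 25.8 (limma adjusted p = 0.521). Cd63, the most abundant of that list, stood at 834 ± 16.6 and 736 ± 73.9 TPM without overlap. The 14 tested pump subunits and assembly factors outside the members had a median of 0.10, with Tcirg1 alone under 0.05.

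Sorting, nutrient-sensing and autophagy genes were likewise without a call. Of 12 genes for mannose 6-phosphate tagging and sorting, which brings hydrolases to the lysosome, 0 passed even an unadjusted p of 0.05, the median was 0.06, and M6pr, the cation-dependent receptor, stood at 139 ± 1.41 and 139 ± 9.67 TPM (mean ± SD of 3 libraries each). Of 19 tested MiT/TFE and mTORC1 genes, 0 were called by limma, and 1, Mlst8, was higher at an unadjusted p under 0.05 (4.78 ± 0.437 and 7.16 ± 0.787 TPM), with a median of 0.06. Of 27 autophagy genes, 0 were called, 4 were lower and 0 higher at that level (6.27% and 2.56% of all tested genes), and the median was -0.08, against -0.04 over all tested genes. Map1lc3a, a homologue of yeast Atg8, was at 43.5 ± 3.23 and 25.3 ± 6.45 TPM (limma adjusted p = 0.297), and Atg13, of the initiating kinase complex, at 16.4 ± 1.61 and 9.94 ± 1.70 (limma adjusted p = 0.348). Rab7, the small GTPase of late endosomes, stood at 361 ± 12.6 and 377 ± 23.1 TPM.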

How the data were processed

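Total RNA was isolated by Trizol with a DNase step and made into Illumina libraries, per the labels' protocols, for 3 WT and 3 A10KO samples. The submitters' processing notes name fastp, HISAT, RSEM and build GRCm38.p5. The strand setting, like every version, is not given in the sources used here. The deposited values were read as TPM, since they carry decimals and each library sums to 969834 to 985045, although the table is presented as raw counts. Depth is therefore unknown, and no counting interval is given. Each library's own table matched the series table in 6 of 6 cases.

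The 12068 genes that reached 1 TPM in 3 or more libraries were fitted with limma 3.58.1 in R 4.3.3, with a mean-variance trend, on log2(TPM + 1). P-values were adjusted by Benjamini-Hochberg over all of them, with a threshold of 0.05. The code was tested on simulated data. Members and gene lists were chosen with earlier results of these data known. All 40 members were named. For each other list, called genes, the 2 lowest p-values and the 2 highest means were set to be named, but not all of these genes are shown. Gene models came from GENCODE M21 (GRCm38), matched by identifier. Promoters came from RefSeq. The 14 alternatives were other pseudocounts, filters, scalings and spread estimates, and leaving out each library.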

Additional observations from a re-analysis of the deposited data

How the results depend on the processing

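No member was called by limma under any of the 14 alternatives, and the lowest adjusted p of any member was 0.203 (Gla, without A10KO replicate 14). Of 40 members, 18 kept the sign of the log2 change throughout and 22 changed it at least once. With median-of-ratios scaling 3 members were lower and 1 higher at an unadjusted p under 0.05, beside 5.05% and 3.60% of all tested genes. The median of members was then 0. With mitochondrial transcripts removed 2 members were lower at that level, beside 4.45% of all tested genes, and 5 were lower without overlap, beside 8.41%. The median of members was 0.021. With quantile normalization 3 genes were called in all. At an unadjusted p under 0.05, 3 members were lower and 1 higher, beside 5.18% and 4.23% of all tested genes. The median of members was 0.003. With array weights 25 genes were called in all. At an unadjusted p under 0.05, 3 members were lower and 2 higher, beside 7.08% and 3.39% of all tested genes. The median over all genes was 0 with median-of-ratios scaling, 0.02 without mitochondrial transcripts and 0.01 with quantile normalization. Leaving out 1 library at a time, with the tested genes kept, gave 2 to 8 called genes, 1 to 5 members lower and 0 to 3 higher at an unadjusted p under 0.05, and 9 to 14 lower and 2 to 5 higher without overlap, with medians of -0.07 to -0.03. Members lower at an unadjusted p under 0.05 numbered 2 without WT replicate 1, 1 without WT replicate 2 and 2 without WT replicate 3. The shares of all tested genes were 4.42%, 3.19% and 3.80%. Dropping a library cannot undo a lack of overlap, so those counts could not fall below the ones with all libraries. Members lower without overlap numbered 10, 9 and 10 without WT replicates 1, 2 and 3, beside 15.9%, 14.7% and 14.2% of all tested genes. Those higher numbered 3, 2 and 3, beside 7.42%, 10.6% and 7.45%. Without A10KO replicate 1 there were 14 lower and 5 higher without overlap, beside 17.4% and 13.4% of all tested genes. At an unadjusted p under 0.05, 3 were then lower and 3 higher, beside 6.74% and 3.94%. Without A10KO replicate 13, 4 were higher without overlap, beside 9.97% of all tested genes. The cause was not tested. No paired analysis was possible because the labels give no pairing of WT with A10KO libraries. TPM keeps no depth, so the precision of the lower genes, such as Gla, cannot be given from counting.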

Other observations

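Several enzymes that degrade heparan sulfate, a set put together after values were seen, did not share a direction. Naglu and Sgsh were lower and Idua higher in A10KO without overlap, and Ids stood above the WT range in A10KO replicate 13 alone. Hgsnat, the acetyltransferase of the route, stood at 70.23, 74.27 and 71.14 TPM in WT and at 60.01, 148.07 and 43.56 in A10KO, so that replicate 13 lay above and replicates 1 and 14 below the WT range.

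Among autophagy genes, Wipi1, a phosphoinositide-binding protein of forming autophagosomes, and Calcoco1, an autophagy receptor, were also lower without overlap, and both were named after values were seen. Of the 27 autophagy genes, 6 were lower and 0 higher without overlap, beside 11.5% and 5.61% of all tested genes. The log2 change was below 0 for 18 of 27, beside 56.5% of all tested genes. Wipi1 stood at 21.95, 28.87 and 24.65 TPM in WT and at 13.66, 18.90 and 13.87 in A10KO (limma adjusted p = 0.37). Calcoco1 stood at 19.21, 31.46 and 21.75 TPM in WT and at 12.72, 15.15 and 14.24 in A10KO (limma adjusted p = 0.404).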
